A study of Mus musculus with 8 samples.

Results

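The genes described here are the *Hox* genes of the 4 mouse clusters, taken as every entry of the count table named *Hoxa*, *Hoxb*, *Hoxc* or *Hoxd* plus a number and nothing more. This gave 39 of 50600 listed genes, of which 11 lie in the *Hoxa*, 10 in the *Hoxb*, 9 in the *Hoxc* and 9 in the *Hoxd* cluster. RNA-seq was performed on NF1-MET cells, a line from a mouse malignant peripheral nerve sheath tumor (MPNST) that carries a MET transgene behind a stop cassette (lox-stop-loxMET tg/+), an *Nf1* fl/ko genotype and Plp-creERT tg/+, which drives Cre from the *Plp* promoter of Schwann lineage cells. In this line *Met* is amplified and *Cdkn2a* is deleted, by the study's own account. The second line, NF1-MET;sgP53, was made from it with a lentiviral CRISPR-Cas9 guide against *Trp53* and puromycin selection. Each line received vehicle (DMSO) or 100 nM capmatinib, an inhibitor of the MET receptor kinase, for 24 h, with 2 replicate libraries in each of the 4 groups. Each genotype was 1 line, so loss of p53 and any other difference between the lines cannot be told apart, and the column names of the NF1-MET libraries contain the letters EV, so that an empty-vector line may have been their source. The labels call the replicates biological, while the protocol describes treatment in duplicate, and p-values then measure the spread between these libraries, which may be technical.

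*Hox* genes encode homeodomain transcription factors that give cells their position along the head-to-tail axis. In each cluster they stand in a row, and their order on the chromosome follows the order in which they are switched on and the place where they are expressed, with low paralog numbers anterior and high numbers posterior. Trunk Schwann cells come from neural crest cells, which keep part of the *Hox* code of the level at which they arose, while cranial neural crest in front of the hindbrain lacks *Hox* expression. HOX proteins bind DNA together with PBX, MEIS and PKNOX proteins, the TALE cofactors. Retinoic acid, CDX proteins and the Polycomb and Trithorax chromatin complexes set which *Hox* genes are on.

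Promoter sequences show the DNA at which the 3 most highly expressed *Hox* genes begin, next to that of *Hoxd10*, the neighbor of *Hoxd9* that was nearly silent. They come from the RefSeq promoter table (GRCm38.p6), are given 5′ to 3′ on the plus strand, end before the annotated gene start, and have each CG dinucleotide in capitals. Their positions are chr2:74704365-74704614 for *Hoxd8*, chr2:74697513-74697726 for *Hoxd9*, chr11:96318017-96318266 for *Hoxb4* and chr2:74691641-74691890 for *Hoxd10*.
Hoxd8: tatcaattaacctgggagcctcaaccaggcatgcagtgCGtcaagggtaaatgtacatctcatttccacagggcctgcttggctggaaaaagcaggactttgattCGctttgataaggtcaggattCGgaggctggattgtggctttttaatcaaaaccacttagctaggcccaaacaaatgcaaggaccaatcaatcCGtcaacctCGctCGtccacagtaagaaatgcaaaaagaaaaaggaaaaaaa
Hoxd9: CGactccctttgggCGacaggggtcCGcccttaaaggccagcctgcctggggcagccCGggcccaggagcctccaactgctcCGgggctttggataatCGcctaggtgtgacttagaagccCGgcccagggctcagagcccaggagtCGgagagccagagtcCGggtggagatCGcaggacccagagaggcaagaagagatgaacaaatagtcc
Hoxb4: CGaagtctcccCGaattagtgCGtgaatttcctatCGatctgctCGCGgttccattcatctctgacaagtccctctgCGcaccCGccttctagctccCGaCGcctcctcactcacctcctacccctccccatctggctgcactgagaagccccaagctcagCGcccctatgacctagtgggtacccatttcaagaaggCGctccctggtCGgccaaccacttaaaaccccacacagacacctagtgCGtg
Hoxd10: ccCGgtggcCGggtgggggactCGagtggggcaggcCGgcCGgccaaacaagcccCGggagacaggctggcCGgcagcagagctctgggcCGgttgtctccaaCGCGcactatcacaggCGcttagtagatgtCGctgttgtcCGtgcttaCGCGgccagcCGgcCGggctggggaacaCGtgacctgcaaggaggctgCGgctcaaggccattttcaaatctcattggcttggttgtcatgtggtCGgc
These windows hold 6 CG dinucleotides in 250 bases for *Hoxd8*, 10 in 214 bases for *Hoxd9*, 14 in 250 bases for *Hoxb4* and 20 in 250 bases for *Hoxd10*. The GC content is 44.4% for *Hoxd8* and between 58% and 65.6% for the other 3 genes. Low numbers were also found at genes without a count, with 3 in the window of *Hoxa9* and 2 in 1 of the windows of *Hoxd11*. That of *Hoxa9* lies inside the annotated gene.

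The libraries held 30.1 M to 42.8 M counts, and a count of 0 in a library allows a level of up to 0.0701 to 0.0996 counts per 1000000 (CPM), taking 3 counts as the limit. Limits set by 3 counts and the Wilson intervals of shares given below cover counting error only. Intervals of log2 fold changes come from the quasi-likelihood fit and include the spread between libraries. *Trp53* itself was lower in the NF1-MET;sgP53 libraries, at 68 to 100 CPM against 126 to 193 CPM, and its target *Cdkn1a* was at 13.4 to 29.5 CPM against 54.4 to 92.9 CPM, which goes with the labels. Of 12 Schwann cell and neural crest markers, 4 reached 1 CPM in each group, among them *Egr2* (15.1 to 74.2 CPM) and *Gap43* (2.79 to 21.7 CPM), while the defining genes *Sox10*, *Ngfr*, *Cdh19* and *Foxd3* stayed at or under 0.176 CPM in every library. Of 9 mesenchymal markers, 7 or 8 reached 1 CPM. Their summed level was 8145 to 9548 CPM in vehicle and 31227 to 32105 CPM in capmatinib, and that of the Schwann and neural crest markers 59.8 to 72.5 CPM and 182 to 193 CPM. Epithelial and endothelial markers summed to under 1 CPM in every library, with at most 0.727 CPM and 0.358 CPM, and leukocyte markers to at most 1.93 CPM. With capmatinib 4 of 7 tested Schwann and neural crest markers and 5 of 8 mesenchymal markers rose in each line (35.5% and 34.2% of all genes), while 1 and 2 of the former and 2 and 1 of the latter fell (34.7% and 33.4%). The part of these shifts in the *Hox* results was not tested, and in bulk RNA fewer cells of a type and less RNA per cell cannot be told apart. One transcript, *Gm42418*, took 1.11% to 13.1% of the counts of a library. In NF1-MET cells its share was 10.1% and 5.29% in vehicle and 11.5% and 13.1% in capmatinib. In NF1-MET;sgP53 cells it was 7.89% and 3.16% in vehicle and 10% and 1.11% in capmatinib. It thus varied within groups, and scaling by library totals includes these counts.

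Most of the *Hox* genes were silent at this depth. Of the 39 genes, 24 had no count in any of the 8 libraries (61.5%), against 28.4% of 21764 protein-coding genes. A sum of 0 over 290 M counts allows a level of up to 0.0103 CPM. The *Hoxc* cluster had no count at all in its 9 genes, the *Hoxa* cluster had counts in 2 of 11, the *Hoxb* cluster in 7 of 10 and the *Hoxd* cluster in 6 of 9. All *Hox* genes together held 10759 counts, or 0.0037% of all counts. The *Hoxd* cluster held 90% of these, the *Hoxb* cluster 9.84% and the *Hoxa* cluster 0.167%.

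**Figure D1:**
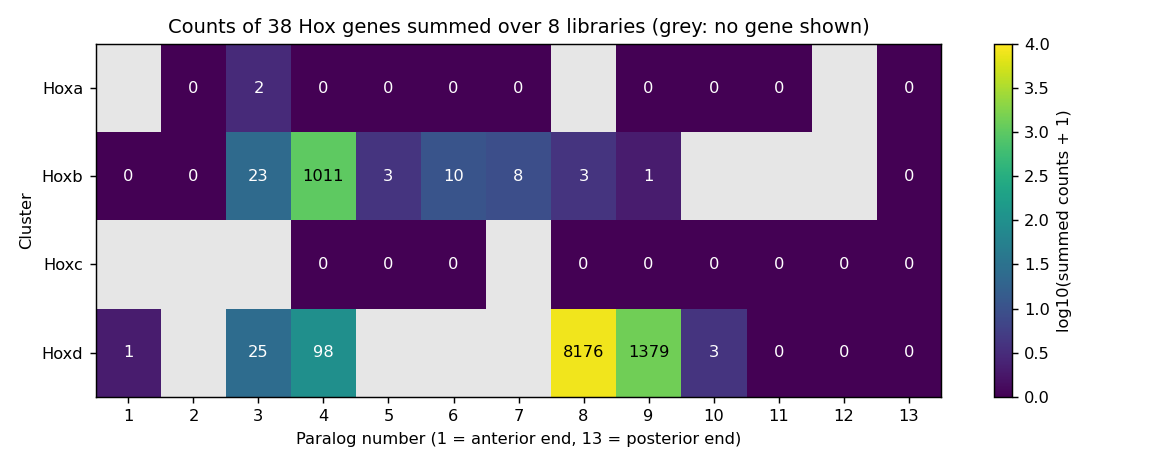
Counts of 38 of the 39 *Hox* genes summed over the 8 libraries, by cluster (vertical) and paralog number (horizontal), with color on a log10 scale and gray where no gene is shown. Counts concentrate in *Hoxd8* (8176), *Hoxd9* (1379) and *Hoxb4* (1011), and positions 11 to 13 are at 0 in every cluster.

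By position, expression lay in the central part of the clusters. *Hoxd8* had 8176 counts, *Hoxd9* 1379, *Hoxb4* 1011 and *Hoxd4* 98, and no other member had more than 25. The posterior genes, paralogs 10 to 13, which pattern the lumbar, sacral and tail levels and the limbs, had 3 counts in all, and these belonged to *Hoxd10*. At the anterior end, *Hoxd1* had 1 count, and *Hoxb1*, *Hoxa2* and *Hoxb2* had 0. Position alone did not go with expression, since *Hoxb8* had 3 counts, *Hoxb9* had 1, *Hoxa4* had 0 and the *Hoxc* paralogs of *Hoxd8* and *Hoxd9* had 0.

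The same restriction was seen along the chromosome. On chromosome 2 the *Hoxd* cluster spans 96.8 kb (74668310 to 74765142, GRCm38), and *Hoxd8* (74704615 to 74707933) and *Hoxd9* (74697727 to 74700208) are adjacent within it. Their neighbor on the posterior side, *Hoxd10*, had a level of 0.00575 CPM per kb of exon, and *Hoxd11*, *Hoxd12* and *Hoxd13* had no count. On the anterior side *Hoxd4* was at 0.115 CPM per kb and *Hoxd3* at 0.0206 CPM per kb. Exons of these last 2 genes overlap each other and those of *Gm28230* on the same strand and *Hoxd3os1* on the other, and the strand used for counting is not given in the sources used here, so the source of their reads is uncertain. *Hoxb4*, on chromosome 11 (96318267 to 96321638), stood alone among the *Hox* genes of its cluster, where *Hoxb3* was at 0.0193 and *Hoxb5* at 0.00391 CPM per kb. The value of *Hoxb3* is per full exon length, 4251 bases, of which 2001 are not shared with *Hoxb3os* on the other strand. No exon of *Hoxd8*, *Hoxd9* or *Hoxb4* overlaps an exon of another annotated gene, although *Hoxd8* lies within the span of *Hoxd3os1*.

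**Figure D2:**
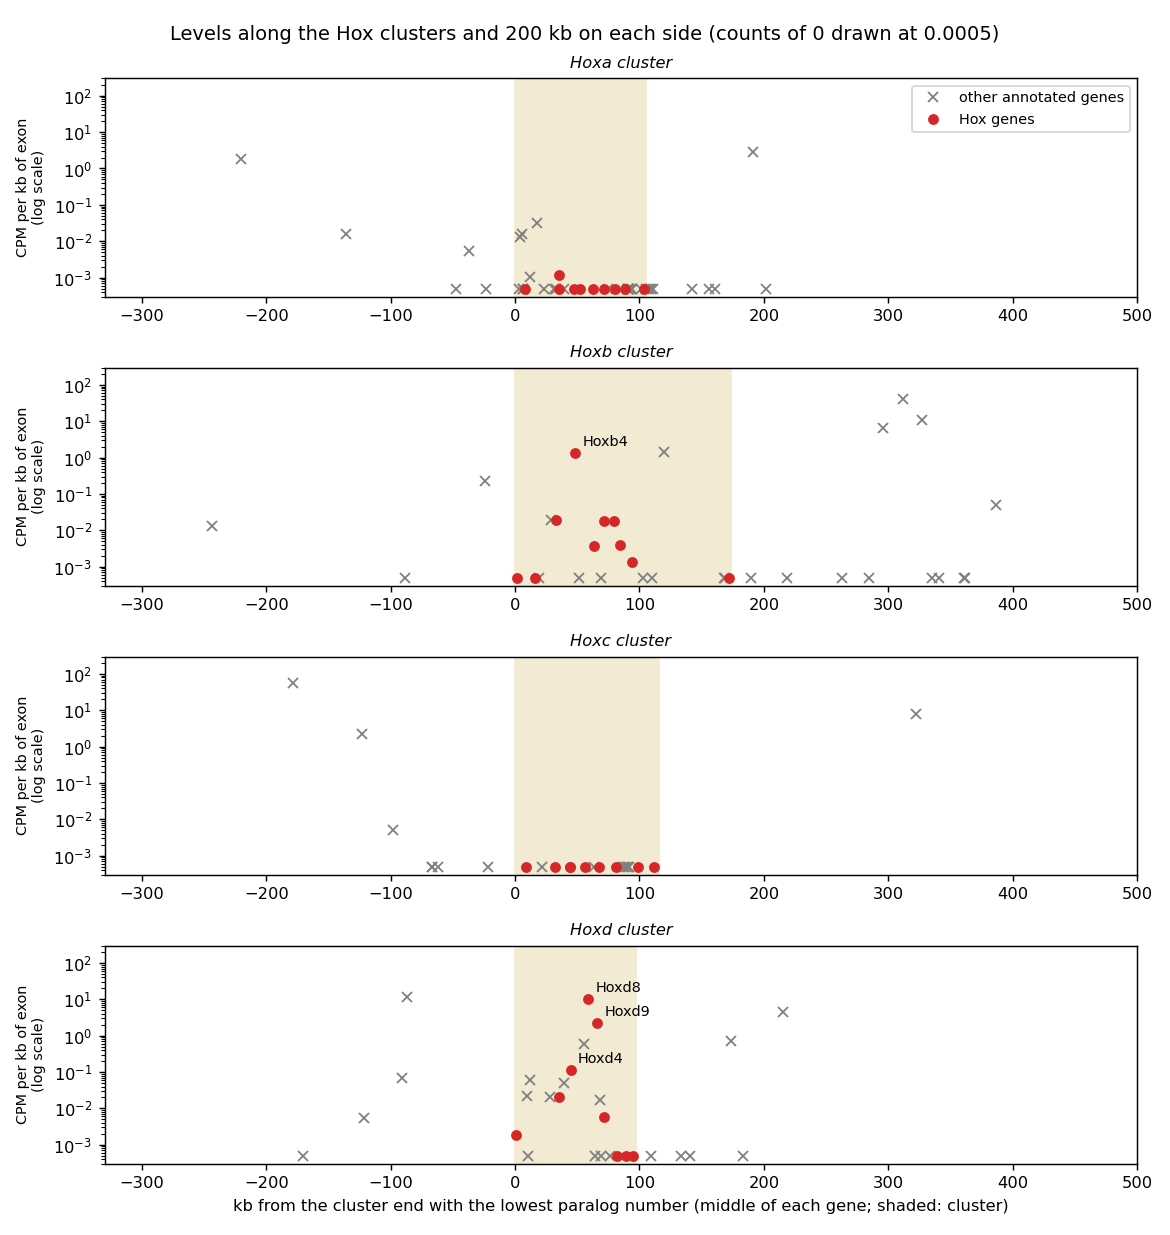
Level of annotated genes in CPM per kb of exon, pooled over the 8 libraries (vertical, log scale), against their distance in kb from the cluster end with the lowest paralog number (horizontal), with *Hox* genes as red dots, other genes as gray crosses and the cluster shaded. *Hoxd8*, *Hoxd9* and *Hoxb4* are the highest *Hox* genes, a gene that is no *Hox* gene stands beside *Hoxb4* in level (*Gm11539*, 1.42 CPM per kb), most other genes inside the clusters are at or near 0, and the *Hoxc* cluster is empty while a gene outside it reaches levels above those of *Hoxd8*.

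Other genes inside the clusters were mostly silent as well. No count was found for 17 of 21 in *Hoxa*, 7 of 9 in *Hoxb*, 7 of 7 in *Hoxc* and 4 of 10 in *Hoxd*. The *Hoxa* number includes *Hottip*, which had no count and lies just past the posterior end of the cluster. The nearest protein-coding neighbors with 10 or more counts in 2 or more libraries were *Skap2* and *Hibadh* beside *Hoxa*, at 143 kb and 285 kb, *Atp5g1* and *Snx11* beside *Hoxb*, at 119 kb and 399 kb, *Calcoco1* and *Smug1* beside *Hoxc*, at 199 kb and 116 kb, and *Lnpk* and *Mtx2* beside *Hoxd*, at 88.9 kb and 60.7 kb. Among these genes the distances were shortest at the *Hoxd* cluster. Genes not annotated as protein-coding were left out here, of which *Gm8129* (173 counts in all) lay closer to *Hoxa* than *Hibadh* and *Mrpl23-ps1* (120 counts) closer to *Hoxd* than *Lnpk*.

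The numbers of CG dinucleotides in the promoters of active and silent *Hox* genes overlapped. The RefSeq table held 24 promoters for 22 of the 39 *Hox* genes. In the 250 bases before the RefSeq start these had a median of 12.5 CG dinucleotides, against 6 over all 32851 promoters. The RefSeq start can lie inside the annotated gene, so that *Hoxd9* counts 13 here and 10 in the shorter window printed above. The 4 genes past the filter had a median of 9.5, and the other 20 *Hox* promoters a median of 12.5 with a range of 2 to 35. AGGTCA, the core of retinoic acid receptor sites, was searched on both strands and found in the windows of *Hoxd8*, *Hoxb4*, *Hoxd4*, *Hoxd3*, *Hoxd10* and *Hoxc4*, which are 3 of the 4 genes past the filter and 3 of the other 20 promoters, and in 14% of all promoters. TGATTNAT, a motif bound by PBX and HOX proteins together, was present in those of *Hoxa2* and *Hoxd11*, neither of which had a count, and in 2.82% of all promoters. A match describes the letters in the window and not a bound site.

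Per kb of exon, *Hoxd8* had the highest level (10.2 ± 1.06 CPM per kb, SD over the 8 libraries), followed by *Hoxd9* (2.23 ± 0.255), *Hoxb4* (1.36 ± 0.171) and *Hoxd4* (0.115 ± 0.0292). The order was far wider than the spread between libraries, with a gap at each step larger than the SDs. By mean CPM, *Hoxd8* exceeded 58.9% of the 14497 genes past the filter, *Hoxd9* 31.7%, *Hoxb4* 28.9% and *Hoxd4* 8.25%. The share of *Hox* counts taken by *Hoxd8* was 71.3% (95% Wilson interval 68.7% to 73.7%) in the lowest library and 79.9% (77.8% to 81.9%) in the highest. It was 77.3% to 79.9% in the 4 vehicle libraries and 71.3% to 74.6% in the 4 capmatinib libraries, without overlap.

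Whether MET inhibition or the *Trp53* guide changed these genes was asked with edgeR's quasi-likelihood test and Benjamini-Hochberg adjustment over all genes. The filter kept genes with 10 or more counts in 2 or more libraries, and 4 of the 39 *Hox* genes passed, namely *Hoxd8*, *Hoxd9*, *Hoxb4* and *Hoxd4*. The other 35 were too low to test. Among the 4, only *Hoxd8* was called in any of the 5 comparisons, and its changes were small.

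*Hoxd8* fell with capmatinib in both lines. In NF1-MET cells its level was 31.4 and 32.8 CPM in the 2 vehicle libraries and 28.3 and 27.4 CPM in the 2 capmatinib libraries. In NF1-MET;sgP53 cells it was 26.8 and 28.2 CPM in vehicle and 24.1 and 25.4 CPM in capmatinib. Within each line the capmatinib libraries lay below both vehicle libraries, and the vehicle libraries of NF1-MET;sgP53 lay at the level of the treated NF1-MET libraries.

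**Figure D3:**
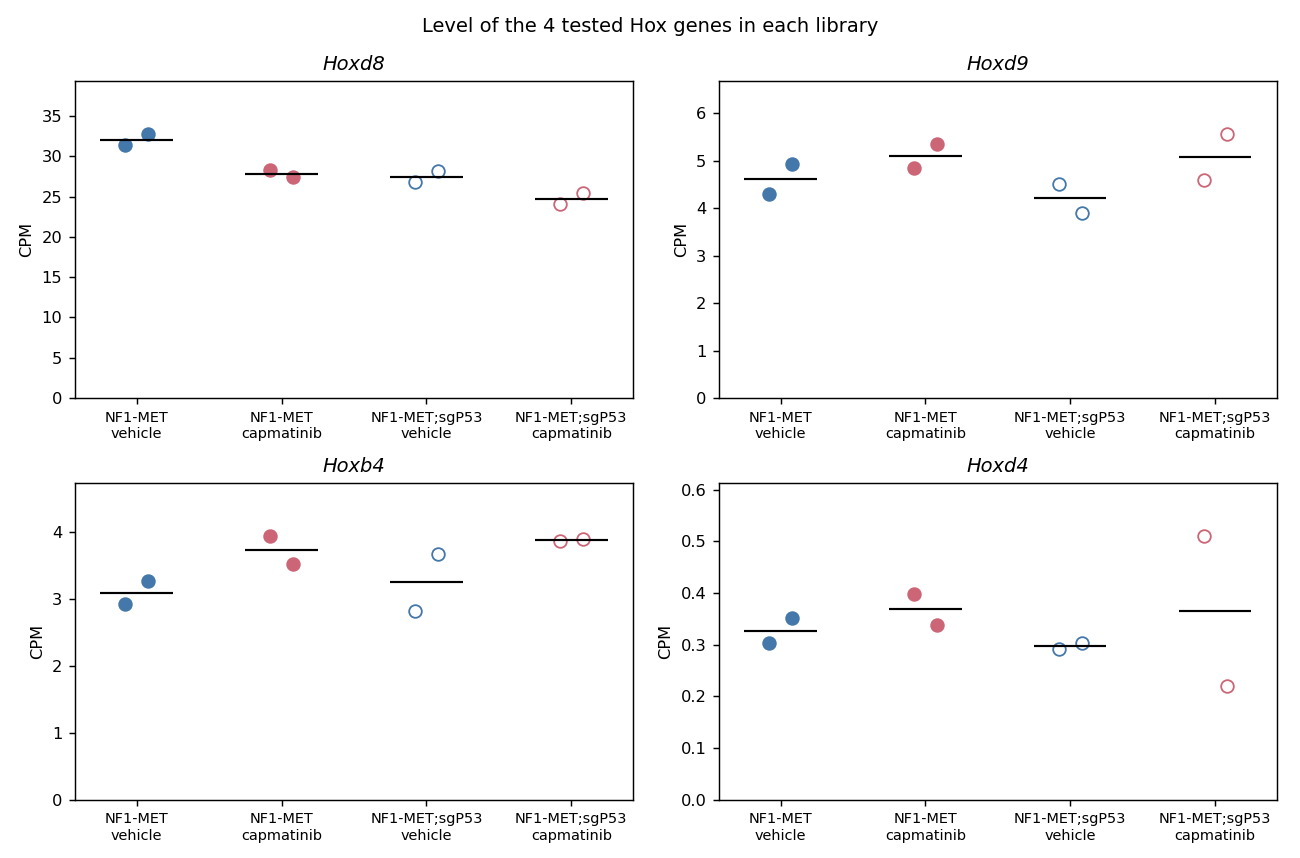
Level in CPM (vertical, from 0) of *Hoxd8*, *Hoxd9*, *Hoxb4* and *Hoxd4* in each library, by group (horizontal), with a dot for each library and a line at the group mean. *Hoxd8* is highest in untreated NF1-MET cells (31.4 and 32.8 CPM) and lowest in treated NF1-MET;sgP53 cells (24.1 and 25.4 CPM), and *Hoxd9* and *Hoxb4* stay between 2.82 and 5.57 CPM.

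The log2 fold change of *Hoxd8* with capmatinib was -0.23 (SE 0.0529, 1.17-fold, edgeR adjusted p = 0.000325) in NF1-MET cells, where it was the 1 of 4 tested *Hox* genes called. Among all genes tested, 34.7% were called lower and 35.5% higher in this comparison, so a call in this direction was common. In NF1-MET;sgP53 cells it was -0.16 (SE 0.0568, 1.11-fold, edgeR adjusted p = 0.0188), again 1 of 4, where 33.4% of all genes were called lower and 34.2% higher. With DESeq2 the second call was lost (adjusted p = 0.107), as it was without NF1-MET;sgP53 vehicle replicate 2 (log2 fold change -0.12, edgeR adjusted p = 0.139) or capmatinib replicate 1 (-0.12, edgeR adjusted p = 0.14). The adjusted p of edgeR or DESeq2 lay between 0.0104 and 0.14 over the 12 alternatives. With library totals in place of TMM factors, which moved the median of all genes by -0.18 and -0.12, *Hoxd8* changed by -0.41 and -0.28. The interaction, which compares this response in the 2 lines, was 0.05 (95% interval -0.11 to 0.21, edgeR adjusted p = 0.758).

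Between the lines, *Hoxd8* was lower in NF1-MET;sgP53 cells. In vehicle the mean was 27.5 ± 0.976 CPM against 32.1 ± 1.06 CPM (SD, n = 2), a log2 fold change of -0.24 (SE 0.0526, 1.18-fold, edgeR adjusted p = 0.00193). This was 1 of 4 tested *Hox* genes, and over all genes 12.3% were called lower and 10.9% higher. With library totals the value was -0.18 and the call was lost (edgeR adjusted p = 0.124), while over the 12 alternatives the adjusted p of edgeR or DESeq2 was 4.13e-05 to 0.124. In capmatinib the mean was 24.7 ± 0.917 CPM against 27.8 ± 0.637 CPM, a log2 fold change of -0.17 (95% interval -0.28 to -0.05) that missed the threshold (edgeR adjusted p = 0.0555). Over 12 alternatives the adjusted p of edgeR or DESeq2 ran from 0.0332 to 0.806 and 3 passed, and with library totals, which moved the median of all genes by 0.11, the value was -0.05. There 0 of 4 *Hox* genes were called by edgeR or DESeq2 and 1 had an unadjusted p under 0.05, with 6.34% of all genes called lower and 5.94% higher.

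*Hoxd9*, the neighbor of *Hoxd8* and like it a gene of the trunk region, was not called in any comparison, and its log2 fold changes with capmatinib were above 0. Its level in NF1-MET cells was 4.3 and 4.94 CPM in vehicle and 4.84 and 5.36 CPM in capmatinib. In NF1-MET;sgP53 cells it was 4.51 and 3.91 CPM in vehicle and 4.6 and 5.57 CPM in capmatinib. The groups overlapped in NF1-MET cells and lay close together, without overlap, in NF1-MET;sgP53 cells. The log2 fold change with capmatinib was 0.13 (95% interval -0.12 to 0.39, edgeR adjusted p = 0.354) in the first line and 0.28 (0.01 to 0.56, edgeR adjusted p = 0.065) in the second. The latter passed the threshold when NF1-MET;sgP53 vehicle replicate 1 (0.38, edgeR adjusted p = 0.021) or capmatinib replicate 1 (0.41, edgeR adjusted p = 0.0274) was left out, within a range of 0.021 to 0.54 over the alternatives. Between the lines it was -0.16 (-0.44 to 0.11) in vehicle and -0.01 (-0.28 to 0.26) in capmatinib, neither called. Whether the changes of *Hoxd8* and *Hoxd9* differ from each other was not tested.

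*Hoxb4*, known for its part in blood stem cell growth and in patterning of the neck region, had 2.92 and 3.26 CPM in vehicle and 3.94 and 3.51 CPM in capmatinib in NF1-MET cells. In NF1-MET;sgP53 cells it had 2.82 and 3.67 CPM in vehicle and 3.86 and 3.89 CPM in capmatinib. The treated libraries lay above the untreated ones in each line. Even so, the log2 fold changes of 0.24 (95% interval -0.07 to 0.55, edgeR adjusted p = 0.159) and 0.24 (-0.08 to 0.55, edgeR adjusted p = 0.169) did not pass the test. The second passed when NF1-MET;sgP53 vehicle replicate 2 was left out (0.46, edgeR adjusted p = 0.0326), within a range of 0.0326 to 0.713 over the alternatives. The lines differed by 0.06 (-0.27 to 0.40) in vehicle and 0.07 (-0.23 to 0.36) in capmatinib.

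*Hoxd4*, a gene of the hindbrain and neck, had 8 to 18 counts in a library, or 0.22 to 0.511 CPM. Its intervals were wide, from -0.81 to 1.08 on the log2 scale with capmatinib in NF1-MET cells and from -0.76 to 1.32 in NF1-MET;sgP53 cells. For the interaction of line and capmatinib, 0 of 4 *Hox* genes were called by edgeR or DESeq2 and 0 had an unadjusted p under 0.05, with 3.85% of all genes called higher and 5.86% lower. The intervals of the interaction were -0.26 to 0.52 for *Hoxd9* and -0.47 to 0.43 for *Hoxb4*.

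**Figure D4:**
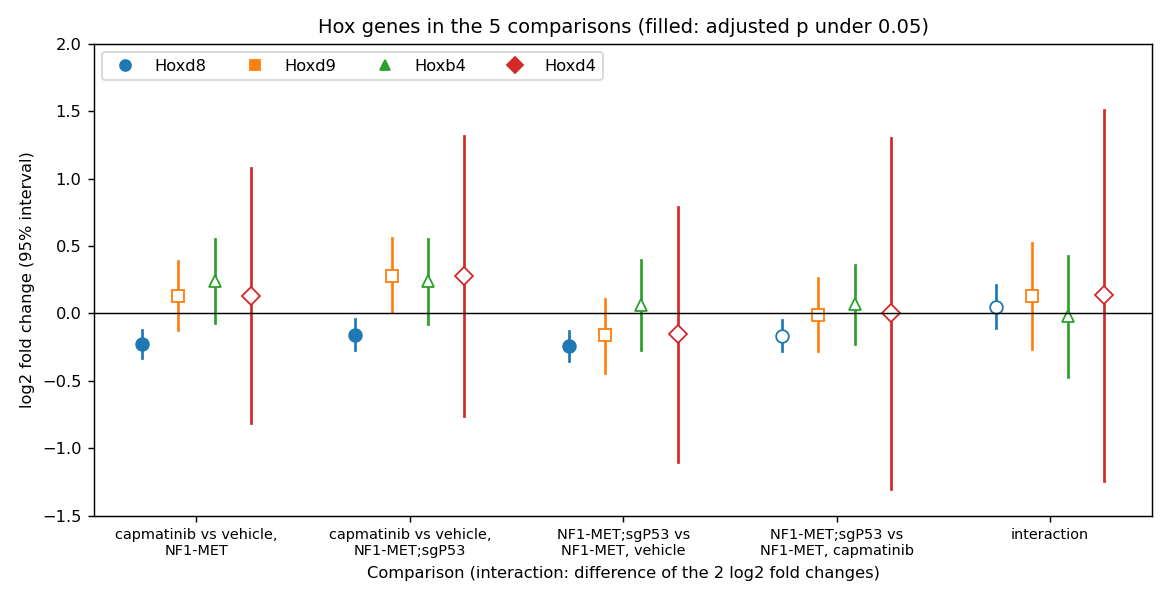
Log2 fold change with its 95% interval (vertical) of the 4 tested *Hox* genes in the 5 comparisons (horizontal), with filled symbols for calls. *Hoxd8* lies below 0 with a narrow interval in the first 4 comparisons (-0.23, -0.16, -0.24 and -0.17), the other 3 genes are called in none, and the intervals of *Hoxd4* span from -1.30 to 1.51.

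Summed over the cluster, *Hoxd* RNA was 36.3 and 38.2 CPM in untreated and 33.6 and 33.1 CPM in treated NF1-MET cells. It was 31.7 and 32.5 CPM in untreated and 29.2 and 31.3 CPM in treated NF1-MET;sgP53 cells. *Hoxd8* made up most of these sums. The *Hoxb* sum lay between 2.95 and 4.3 CPM, and that of *Hoxa* was at most 0.22 CPM.

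Among the members below the filter, *Hoxb6*, a gene of the thoracic region, had 0 counts in all 4 NF1-MET libraries and 3, 2, 4 and 1 counts in the 4 NF1-MET;sgP53 libraries. It was chosen for mention after its counts were seen. Tested without the filter, it was not called (edgeR adjusted p = 0.127 in vehicle and 0.276 in capmatinib). *Hoxd3* had 0 to 8 counts in a library, *Hoxb3* 0 to 5 and *Hoxb7* 0 to 3. All of these levels are near the limit set by a few counts, and no difference between groups was called for them.

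Of the 47 other genes inside the clusters, counted with *Hottip* just outside *Hoxa*, 2 passed the filter. One was *Hoxd3os1*, an antisense transcript (74703248 to 74716130 on the minus strand of chromosome 2) whose body runs across *Hoxd8* and whose exons overlap those of *Hoxd3* and *Hoxd4*. In NF1-MET cells it had 1.96 and 1.71 CPM in vehicle and 2.13 and 1.72 CPM in capmatinib. In NF1-MET;sgP53 cells it had 1.08 and 1.1 CPM in vehicle and 1.99 and 1.96 CPM in capmatinib. The untreated NF1-MET;sgP53 libraries stood below the other 6, which lay together. It rose with capmatinib in NF1-MET;sgP53 cells (log2 fold change 0.85, SE 0.23, edgeR adjusted p = 0.00243) and was lower in NF1-MET;sgP53 than in NF1-MET cells in vehicle (-0.76, SE 0.226, edgeR adjusted p = 0.018). The second call was lost with DESeq2 (adjusted p = 0.142) and without 3 of the 4 libraries in turn, within a range of 0.00569 to 0.142. In NF1-MET cells the value with capmatinib was not called, and the interaction of line and treatment, 0.80, missed the threshold (edgeR adjusted p = 0.116). The other, *Gm11539* in the *Hoxb* cluster, had 0.573 to 1.01 CPM, or 1.42 ± 0.291 CPM per kb of exon against 1.36 ± 0.171 for *Hoxb4* (SD over the 8 libraries), and was called in no comparison.

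The TALE cofactor genes changed with capmatinib in both directions, at shares to be read against those of all genes. All 9 were tested, and 4 rose and 4 fell in NF1-MET cells (35.5% and 34.7% of all genes) while 4 rose and 3 fell in NF1-MET;sgP53 cells (34.2% and 33.4%). As most genes of the table were called in these comparisons, the number of calls does not set the list apart. The median log2 fold change of the list was 0.07 and 0.48, against 0.00 over all genes in both. *Pknox2* went from 9.06 and 9.23 CPM to 21.5 and 23.1 CPM in NF1-MET cells (log2 fold change 1.28, SE 0.0734, edgeR adjusted p = 2.09e-16) and from 14.3 and 14.2 CPM to 27.1 and 27.7 CPM in NF1-MET;sgP53 cells (0.94, SE 0.0628). *Meis3* rose by 1.00 and 1.10 and *Meis1*, a partner of HOX proteins in leukemia, by 0.87 and 0.93 on the log2 scale. The call of *Meis3* in NF1-MET cells was lost without NF1-MET capmatinib replicate 1 (0.67, edgeR adjusted p = 0.0637) and passed under the other 11 alternatives. *Pbx3* (-0.24 and -0.44), *Meis2* (-0.22 and -0.14) and *Pknox1* (-0.51 and -0.49) fell in both lines. The list thus split in direction, with members of the MEIS and the PKNOX families on both sides.

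**Figure D5:**
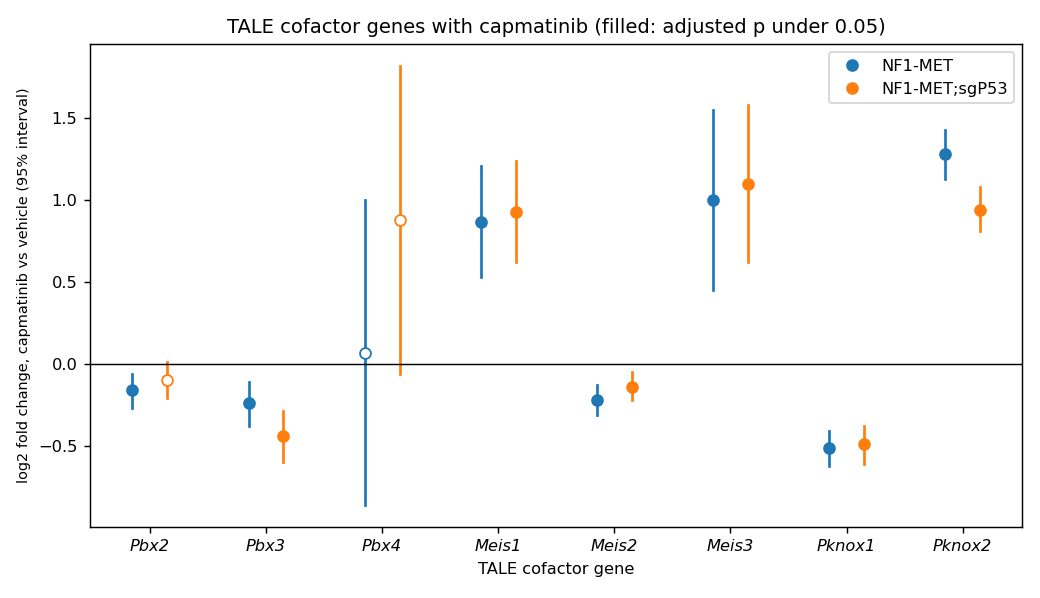
Log2 fold change with capmatinib and its 95% interval (vertical) for 8 of the 9 TALE cofactor genes (horizontal) in both lines, with filled symbols for calls. *Meis1*, *Meis3* and *Pknox2* lie above 0 and *Pbx3*, *Meis2* and *Pknox1* below 0 in both lines, from -0.51 to 1.28.

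Between the lines, 1 of the 9 was called higher and 1 lower in each treatment, where 10.9% and 12.3% of all genes were called in vehicle and 5.94% and 6.34% in capmatinib. *Pknox2* was higher in NF1-MET;sgP53 cells by 0.62 in vehicle and 0.29 in capmatinib. *Pbx2* was lower in vehicle by a log2 fold change of -0.14 (edgeR adjusted p = 0.0493), a call that passed under 4 of 12 alternatives (adjusted p of edgeR or DESeq2 0.0281 to 0.583) and was lost with any 1 of the 4 libraries left out.

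Regulators of *Hox* genes were measured by a list of 30, of which 24 could be tested. With capmatinib 8 rose and 13 fell in NF1-MET cells (35.5% and 34.7% of all genes) and 9 rose and 10 fell in NF1-MET;sgP53 cells (34.2% and 33.4%), with medians of -0.16 and -0.01. Scaled by library totals, 4 rose and 14 fell in the first line and 4 rose and 10 fell in the second. Over all genes 3508 then rose and 6381 fell in the first line, and 3260 rose and 4933 fell in the second. The balance thus depends on the scaling for all genes as well as for the list. *Cdx1*, *Cdx2* and *Cdx4*, which switch on trunk *Hox* genes, had no count in any library. In the retinoic acid pathway, the receptor gene *Rarb*, itself a target of retinoic acid, went from 0.331 and 0.376 CPM to 4.23 and 4.74 CPM in NF1-MET cells (log2 fold change 3.64, SE 0.236, edgeR adjusted p = 4.27e-15) and from 0.582 and 0.889 CPM to 4.06 and 4.66 CPM in NF1-MET;sgP53 cells (2.53, SE 0.215). *Aldh1a2*, which makes retinoic acid, fell by 1.25 and 1.68 on the log2 scale, from at most 1.94 CPM in vehicle. *Hoxb1*, a known early target of retinoic acid, had no count. *Egr2*, a regulator of hindbrain *Hox* genes and of myelination that is also in the Schwann marker list, rose by 2.18 and 1.83.

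Between the lines, 2 of the 24 regulators were higher in vehicle-treated NF1-MET;sgP53 cells and 7 were lower (10.9% and 12.3% of all genes). In capmatinib 0 were higher and 3 lower (5.94% and 6.34%). With library totals the counts were 3 and 3 in vehicle and 0 and 0 in capmatinib, against 1280 and 743, and 537 and 129, over all genes. The largest difference among those with at least 1 CPM was that of *Cyp26b1*, which degrades retinoic acid, at 3.72 and 3.32 CPM against 8.54 and 9.03 CPM in vehicle (log2 fold change -1.34, SE 0.11, edgeR adjusted p = 1.34e-08). *Kdm6b*, a demethylase that removes the Polycomb mark, differed by -0.33. *Aldh1a2* differed by 0.70 (edgeR adjusted p = 0.0311), and this call passed under 8 of 12 alternatives (adjusted p of edgeR or DESeq2 0.0119 to 0.204). It was lost with DESeq2's Wald test and without NF1-MET vehicle replicate 1 (0.56), NF1-MET vehicle replicate 2 (0.87) or NF1-MET;sgP53 vehicle replicate 2 (0.60). In capmatinib *Cbx2*, a Polycomb subunit that reads this mark, differed by -0.34, *Egr2* by -0.13 and *Rarg* by -0.09. These calls passed under 8, 9 and 5 of 12 alternatives.

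Genes flanking the clusters were tested for 14 of 21. With capmatinib 2 rose and 11 fell in NF1-MET cells (35.5% and 34.7% of all genes) and 2 rose and 9 fell in NF1-MET;sgP53 cells (34.2% and 33.4%), with medians of -0.26 and -0.23 against 0.00 over all genes. *Lnpk* and *Mtx2*, the nearest protein-coding neighbors of the *Hoxd* cluster by the count minimum above, both fell. *Lnpk*, a gene of endoplasmic reticulum shape, changed by -0.29 (SE 0.0452) and -0.26 (SE 0.0435), and *Mtx2*, of mitochondrial protein import, by -0.41 (SE 0.0446) and -0.30 (SE 0.0438). The corresponding values of *Hoxd8* were -0.23 and -0.16, and the differences between the genes were not tested. Beside the silent *Hoxc* cluster, *Calcoco1* rose by 1.04 and 1.30 and *Hnrnpa1* (-0.65 and -0.51) and *Cbx5* (-0.60 and -0.68), a heterochromatin protein gene, fell in both lines, while no *Hoxc* gene had a count in any group. Beside the *Hoxa* cluster, *Skap2* rose by 0.68 and 0.75. Between the lines, 0 of the 14 were higher and 2 lower in vehicle (10.9% and 12.3% of all genes), namely *Calcoco1* (-0.22) and *Hnrnpa1* (-0.07). With library totals neither was called, and the call of *Hnrnpa1* passed under 5 of 12 alternatives. In capmatinib 1 was higher and 0 lower (5.94% and 6.34%), and this was *Skap2* (0.26).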

How the data were processed

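RNA of 8 libraries (4 groups of 2) was analysed. The authors trimmed reads with Trim Galore 0.4.2, mapped them to mm10 with STAR 2.5.2b and deposited raw counts per gene, which are whole numbers, not normalized. The annotation release and strand setting are not given in the sources used here. Library totals of 30.1 M to 42.8 M set the limit for a count of 0. Positions and exon lengths came from GENCODE M21 (GRCm38), which held 50376 of 50600 identifiers and all 39 members.

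Genes were kept with 10 or more counts in 2 or more libraries, and above 0 in 2 or more libraries of the comparison. Genes were tested with edgeR 4.0.16 in R 4.3.3 (TMM factors, quasi-likelihood F-test, Benjamini-Hochberg adjustment over all genes, threshold 0.05) on the libraries compared, or on all 8 for the interaction. Standard errors were the log2 fold change over the root of the F statistic. CPM used TMM factors over the 8 libraries. The fits were run on simulated counts with the same dispersion for every gene and changes only in genes with more counts than *Hoxd4*. This does not test them at lower counts or with unequal spread between libraries. Values in every library are given for *Hox* genes that reach a group mean of 1 CPM. Of the other lists the called genes are counted and the 3 largest changes with at least 1 CPM are named, except that marker lists are given by counts and sums with a few markers named to check the cell type, and others named (*Pbx3*, *Meis2*, *Pknox1*, *Lnpk*, *Mtx2*, *Gm8129*, *Mrpl23-ps1*, *Mir10b*, *Haglr*, *Hoxb6*, *Cdx1*, *Cdx2*, *Cdx4*) were chosen after their values were seen.

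Members and lists were chosen with earlier results of these data known. Alternatives were DESeq2 1.42.0 size factors or Wald test, library totals, no filter, a stricter filter (10 counts in 7 libraries), a replicate block, all 8 libraries in 1 model, unshared exon length, each library left out in turn and, added after the data had been seen, edgeR's bias-adjusted test. The single values of 1 *Hox* gene, 1 TALE cofactor and 1 marker are not reported here. Replicates of no group were identical.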

Additional observations from a re-analysis of the deposited data

Results flagged for a closer look

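None of the 4 tested *Hox* genes was called in the test of the interaction, which compares the response to capmatinib in the 2 lines (edgeR; DESeq2 and an unadjusted p under 0.05 also gave 0). For the lists beside them, 0 of 9 TALE cofactor genes were called higher and 1 lower, 4 and 1 of 24 regulators, and 1 and 0 of 14 flanking genes (3.85% and 5.86% of all genes; edgeR quasi-likelihood test with Benjamini-Hochberg adjustment). Of these, 6 genes are given here, as log2 values of NF1-MET;sgP53 minus NF1-MET. *Cyp26b1* fell in NF1-MET cells (-0.88) and was called higher in NF1-MET;sgP53 cells (0.31, edgeR adjusted p = 0.0476), a difference of 1.18 (SE 0.168, edgeR adjusted p = 2.69e-05). The call in NF1-MET;sgP53 cells was lost under most alternatives. *Dot1l* fell by 0.86 and 0.50, a difference of 0.35 (edgeR adjusted p = 2.71e-05). *Kdm6b* was at 0.05, not called, and 0.38, a difference of 0.31 (edgeR adjusted p = 0.000678). *Egr2* rose by 2.18 and 1.83, a difference of -0.36 (edgeR adjusted p = 0.00135). *Calcoco1* rose by 1.04 and 1.30, a difference of 0.25 (edgeR adjusted p = 0.0107). The calls of *Egr2* (-0.29, edgeR adjusted p = 0.334) and *Calcoco1* (0.33, edgeR adjusted p = 0.159) were lost with library totals and passed under the other 14 alternatives. *Pknox2* rose by 1.28 and 0.94, a difference of -0.35 (edgeR adjusted p = 0.0174), which passed under 8 of 15 alternatives and was lost without any 1 of 5 of the 8 libraries (-0.39 to -0.29 over the 8). Outside these lists, *Cdkn1a*, used to check the labels, differed by -0.28 (SE 0.0743, edgeR adjusted p = 0.0148).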

How the results depend on the processing

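The fall of *Hoxd8* with capmatinib in NF1-MET cells kept its call under all 12 alternatives (-0.41 to -0.19). In NF1-MET;sgP53 cells the count of called *Hox* genes was 0 with DESeq2's Wald test, and *Hoxd8* kept its sign in all 12 (-0.28 to -0.12). With a library left out there, *Hoxd9* (0.13 to 0.41) and *Hoxb4* (0.08 to 0.46) moved in the other direction. For NF1-MET;sgP53 against NF1-MET in vehicle the count of called *Hox* genes was 0 with library totals. In capmatinib it was 1 with all 8 libraries in 1 model and with the bias-adjusted test, and 0 to 1 with a library left out (1 without NF1-MET;sgP53 capmatinib replicate 2, where *Hoxd8* was at -0.21). For the TALE list in vehicle the count of 2 became 1 with library totals, DESeq2's Wald test, no filter or all 8 libraries, and 1 with any library left out. In capmatinib it became 1 with library totals, DESeq2's Wald test or no filter, and 1 to 2 with a library left out, and for the interaction 0 with library totals or DESeq2's Wald test and 0 to 1 with a library left out. For the regulators in capmatinib the count of 3 became 0 with library totals and with DESeq2's Wald test and 1 without the filter, and for the interaction the 5 became 3 with library totals. Between the lines in capmatinib, *Rarg* at 0.03 reversed with library totals. Without the filter, 2 of the other genes inside the clusters were called lower with capmatinib in NF1-MET;sgP53 cells, where 0 were with it. The causes were not tested.

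Library totals moved the all-gene median by -0.18 and -0.12 (log2) for capmatinib and by 0.06 and 0.11 for the line difference in vehicle and capmatinib. Calls higher and lower then were 3508 and 6381 in place of 5140 and 5029, 3260 and 4933 in place of 4963 and 4841, 1280 and 743 in place of 1580 and 1775, 537 and 129 in place of 860 and 918, and 192 and 123 in place of 558 and 849 for the interaction. *Hoxd4* was at 0.242 CPM per kb of unshared exon.

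Deviations of libraries with the same replicate number correlated at -0.05 to 0.10, so the numbers were not taken to pair libraries. With a replicate block the *Hox* counts stayed at 1, 1, 1, 0 and 0, and over all genes the calls in vehicle were 1905 and 2089, while of the flanking genes 2 were higher and 2 lower.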

Other observations

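Counts of 1 to 5 for *Hoxb3* were found in 7 of the 8 libraries. *Mir10b*, a microRNA gene inside the *Hoxd* cluster, had 1 count in all. *Haglr*, a non-coding RNA beside *Hoxd1*, had 19 counts, with 3 and 3 in vehicle and 1 and 0 in capmatinib in NF1-MET cells and 3 and 8 in vehicle and 0 and 1 in capmatinib in NF1-MET;sgP53 cells.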
